A study of Mus musculus with 12 samples.

Results

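Genes of the major histocompatibility complex (MHC) and of antigen presentation were followed in colorectal tissue of Apc mutant and wild-type mice. A gene was a member if the array named it with the prefix H2-, or if it was B2m, Tap1, Tap2, Tapbp, Psmb8, Psmb9, Psmb10, Nlrc5, Cd1d1, Cd74 or Ciita. The rule gave 51 genes with 69 probes, of 30199 named genes and 39429 probes on the array. Of these 51 genes, 37 belong to the class I system, 12 to the class II system, and 2 (H2-Ke2 and H2-Ke6) carry an H2- name without being MHC molecules. The rule itself reads gene names and no measured value, and it was chosen with earlier results of these data known. The arrays came from 3 groups of 4: polyps of Apc+/Δ716 mice, normal tissue of Apc+/Δ716 mice (called Apc normal below), and normal tissue of wild-type mice. All mice were C57BL/6N females aged 14 weeks. Every cell of the mutant mice carries 1 truncated Apc allele, so polyps and Apc normal tissue share it. The polyps and the Apc normal tissue carry the same mouse numbers (103, 106, 107 and 110), and the wild-type mice are numbered 102, 104, 105 and 108. Each array measured 1 labelled tissue sample, whose RNA mixes epithelium, stroma and immune cells. The titles say polyps in the plural, so the polyp of a mouse means its polyp array below. In such bulk tissue, fewer cells of a type and less RNA per cell cannot be told apart.

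MHC class I molecules are made of a heavy chain and β2-microglobulin (B2m), and they display peptides from inside the cell to CD8 T cells and to natural killer cells. The peptides are cut by the proteasome, whose interferon-inducible subunits are Psmb8, Psmb9 and Psmb10, pumped into the endoplasmic reticulum by Tap1 and Tap2, and loaded with the help of tapasin (Tapbp). Class II molecules pair an α and a β chain, travel with the invariant chain (Cd74), and exchange its remnant for a peptide with the help of the DM molecule, which the DO molecule restrains. Nlrc5 and Ciita are the co-activators of class I and class II transcription, and both are induced by interferon gamma. In the intestine nearly all cells carry class I, whereas B cells, dendritic cells and macrophages carry class II, and epithelium gains class II under interferon gamma.

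The promoters of several members hold the letters through which this control is known to run, and they are shown as background. Whether members with these letters changed together was not tested. The sequences are from RefSeq on GRCm38.p6 and are read 5′ to 3′ on the gene's own strand. Capitals mark TTTCACTTC, which matches the interferon element GAANNGAAA on the other strand, and TGACG and ATTGG, the cores of the X2 and Y boxes to which the Nlrc5 and Ciita complexes are recruited.
B2m, chr2:122147605-122147642, plus strand: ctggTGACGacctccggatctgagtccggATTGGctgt
H2-K1, chr17:34000355-34000441, minus strand: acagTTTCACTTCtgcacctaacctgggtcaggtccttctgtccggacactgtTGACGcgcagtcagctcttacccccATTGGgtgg
H2-D1, chr17:35262940-35263026, plus strand: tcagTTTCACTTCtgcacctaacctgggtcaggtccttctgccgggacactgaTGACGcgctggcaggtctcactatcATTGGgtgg
H2-Q7, chr17:35439038-35439123, plus strand: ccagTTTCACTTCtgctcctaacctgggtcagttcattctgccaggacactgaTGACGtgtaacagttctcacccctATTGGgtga
H2-Aa, chr17:34287863-34287901, minus strand: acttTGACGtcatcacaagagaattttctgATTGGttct
Psmb9 and Tap1 are transcribed away from each other, and 225 bases lie between their starts. That stretch, given on the plus strand in the direction of Tap1, holds 1 TGACG and, near the Psmb9 start, the reverse complement of ATTGG.
Between Psmb9 and Tap1, chr17:34187331-34187555, plus strand: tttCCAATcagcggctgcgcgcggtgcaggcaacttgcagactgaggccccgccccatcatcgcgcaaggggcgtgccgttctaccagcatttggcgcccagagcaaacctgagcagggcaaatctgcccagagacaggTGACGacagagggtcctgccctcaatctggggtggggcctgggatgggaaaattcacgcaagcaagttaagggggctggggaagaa

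Each motif was searched on both strands in the 250 bases before the start, and the motifs were chosen with these sequences in view. Of the 51 members, 35 had a promoter in the table, and 25 of these are class I genes and 8 class II genes. TGACG followed by ATTGG after 18 to 22 bases stood before B2m, H2-Aa, H2-D1, H2-K1, H2-M3 and H2-Q7, that is in 6 of the 35 members and in 0.247% of all 32851 promoters. GAANNGAAA stood before 7 members, all of class I (H2-D1, H2-K1, H2-M2, H2-M3, H2-Q4, H2-Q7 and H2-Q10), and in 6.31% of all promoters. The shorter TGACG and ATTGG stood in 17.8% and 33.8% of all promoters, matches within the pair included, so a single match of either is common. A match describes letters only, and no match says nothing about a factor.

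On each array 64.6% to 73.8% of spots were well above background and none was saturated. Levels are given as log2 of the processed signal relative to the 75th percentile of the same array, and they can be compared between arrays for 1 probe but not between probes. Of the 51 members, 37 were well above background on all 12 arrays, and 4 (H2-Ea-ps, H2-M5, H2-M10.2 and H2-M10.6) on no array. H2-Ea-ps is the Ea locus, whose promoter is deleted in the H2-b haplotype of the C57BL/6 lineage. The other 10 members were above background on some arrays. All 12 colonic epithelial markers were well above background on all arrays.

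1 array stood apart in these genes, the polyp of mouse 103. It had the lowest level of the 4 polyps in 24 of 27 class I genes, with a median 0.82 below the other polyps on the log2 scale, and in 8 of 9 class II genes, with a median 1.07 below them. In 7 of 27 class I genes (B2m, H2-Q5, Tap1, Tap2, Psmb8, Psmb9 and Nlrc5) it lay more than 1 log2 unit under every other polyp, which is 25.9% of these genes, against 1.7% of 20104 genes on the array. H2-Q1, Cd1d1, Ciita and H2-Ke6 were not low there. Results are therefore given with and without this array. Among the Apc normal arrays, those of mice 106 and 110 were both above those of mice 103 and 107 in 8 of 9 class II genes, with a median difference of 1.22, and in 6 of 27 class I genes. The array of mouse 107 was the lowest Apc normal array in 8 of 9 class II genes. It also stood apart beyond these genes. Of 20104 genes, 2.08% lay there more than 1 log2 unit under every other Apc normal array, and 1.92% as far above. How often an array was lowest or highest over all genes was not counted.

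Added over the 37 class I genes on the linear scale, where 1 is the array's 75th percentile, the polyps had 189, 366, 361 and 339 in mice 103, 106, 107 and 110. The Apc normal arrays had 475, 398, 414 and 403 in the same mice, and the wild-type arrays had 509, 462, 457 and 500 in mice 102, 104, 105 and 108. All 4 polyps lay below all 8 normal arrays, and bright probes such as those of H2-K1, H2-D1 and H2-Q2 weigh most in such a sum. Added over the 12 class II genes, the polyps had 26.0, 55.0, 63.2 and 43.9, the Apc normal arrays 48.4, 104, 39.3 and 107, and the wild-type arrays 52.6, 50.1, 38.2 and 29.6. The class II sums overlapped between all 3 groups, and their 2 highest values came from the Apc normal tissue of mice 106 and 110.

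**Figure D1:**
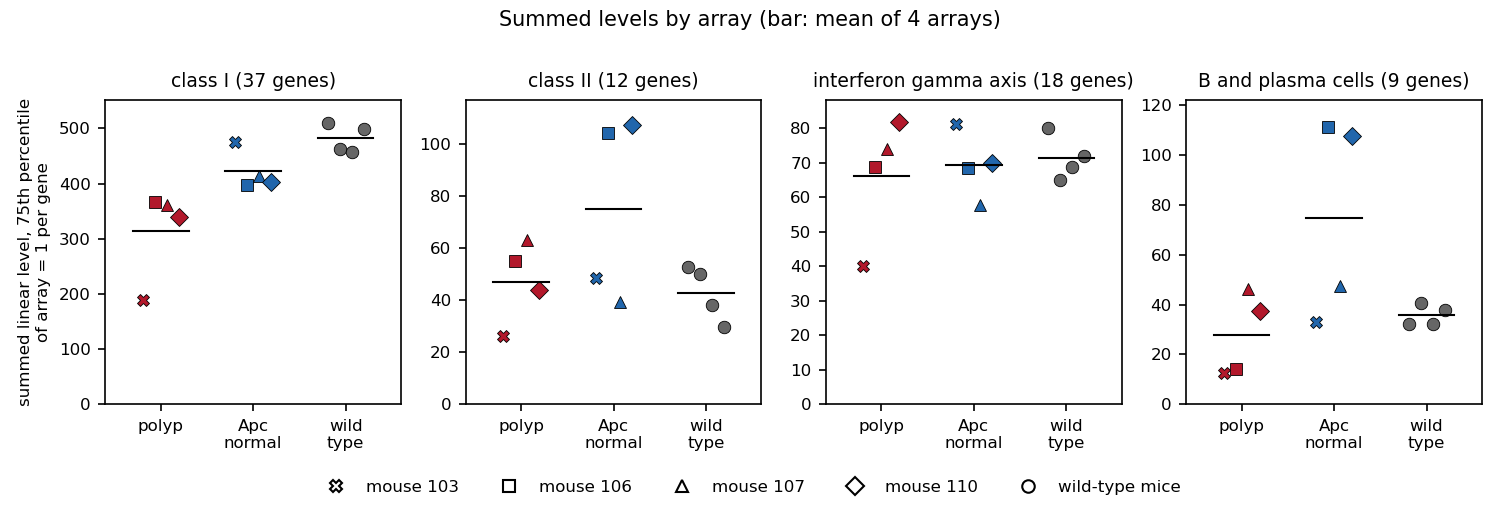
Summed linear levels (vertical axis, relative to the array's 75th percentile) of the class I genes, the class II genes, the interferon gamma axis list and the B and plasma cell markers, with 1 point per array and a bar at the group mean, for polyps, Apc normal and wild-type tissue. Symbols mark the mouse of a polyp or Apc normal array. On the normal arrays Ifngr1, Irf1 and Ifngr2 weigh most in the interferon gamma sum. The class I sums of the polyps reach 366 and those of the normal arrays begin at 398, and Apc normal tissue of mice 106 and 110 is highest in class II and in the B and plasma cell sum, most of which is Jchain.

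Polyps were first set against the Apc normal tissue, which asks what differs between adenoma and normal tissue of mutant mice. Of 38 members tested with limma over all 23021 probes, 11 changed at an adjusted p under 0.05, 1 higher and 10 lower in polyps. Over all 19683 genes tested the same rule called 45.8%, with 21.1% higher and 24.8% lower. The members' share lay under this background, so their count is not a result about the set. The median difference of the 38 members was −0.48 on the log2 scale, against −0.05 over all genes tested. Class I held 1 higher and 8 lower of 27 tested, with a median of −0.47, and class II held 0 higher and 1 lower of 9, with a median of −0.66. All 11 changed the same way in 4 of 4 mice when each polyp was set against the Apc normal tissue of its own mouse. They were called on these same arrays, so this is no separate support. A fit with the mouse as a block called 7 of the 11, without H2-Bl, H2-T23, Psmb10 and Tapbp. Over all genes that fit called 46.9%.

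Without the polyp of mouse 103, 10 members changed, 4 higher and 6 lower, against a background of 40.3% (19.1% higher and 21.3% lower). The genes called in both fits, each by its brightest probe, were H2-Q1, H2-Q2, H2-Q10, H2-M2, H2-Ke6, Cd1d1 and Ciita. Second, dimmer probes had the same direction but weaker support. With all arrays the adjusted p was 0.387 for that of H2-M2, 0.0820 for H2-Q2 and 0.0503 for Cd1d1, and neither fit called them. The second H2-Q10 probe was called with all arrays (adjusted p = 0.0228) but not without that polyp (adjusted p = 0.0557). The same 4 that the block left out (H2-Bl, H2-T23, Psmb10 and Tapbp) were not called, and Nlrc5, Tap1 and H2-Q5 were called higher. Without the Apc normal array of mouse 103, 7 members were called, against a background of 41.7%.

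Light chain and classical heavy chains did not pass the test with all arrays. B2m (probe at chromosome 2, 121978401 to 121978460 on mm9) had a log2 level of 3.73, 5.83, 5.75 and 5.49 in polyps of mice 103, 106, 107 and 110, against 5.12, 5.54, 5.28 and 5.11 in Apc normal tissue and 5.05, 5.17, 4.99 and 5.33 in wild-type tissue. The polyp of mouse 103 was the lowest of the 12 arrays, and the polyps of mice 106 and 107 were the highest. The difference between polyps and Apc normal tissue was −0.06 ± 0.44 (SE, limma adjusted p = 0.921), and it was 0.43 ± 0.15 (adjusted p = 0.0626) without that polyp.

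H2-K1, the heavy chain of K molecules (chromosome 17, 34133055 to 34133114 on mm9), had 4.73, 5.75, 5.76 and 5.68 in polyps, against 6.14, 6.07, 5.91 and 6.06 in Apc normal tissue and 6.45, 6.42, 6.49 and 6.60 in wild-type tissue. On this probe the 3 groups did not overlap, with polyps lowest and wild-type tissue highest. On a second, dimmer H2-K1 probe the Apc normal arrays overlapped both other groups, and polyps lay under all wild-type arrays. Its difference between polyps and Apc normal tissue was −0.62 ± 0.26 (adjusted p = 0.0815). H2-D1, the heavy chain of D molecules (chromosome 17, 35403886 to 35403945 on mm9), had 4.56, 5.43, 5.36 and 5.32 in polyps, against 5.75, 5.52, 5.64 and 5.75 in Apc normal tissue and 5.79, 5.72, 5.65 and 5.77 in wild-type tissue. All polyps lay under all normal arrays in H2-D1, and the normal groups overlapped. In the comparison with Apc normal tissue the difference was −0.57 ± 0.23 for H2-K1 (adjusted p = 0.0792) and −0.50 ± 0.20 for H2-D1 (adjusted p = 0.0742). Without the polyp of mouse 103 they were −0.32 ± 0.11 (adjusted p = 0.0532) and −0.29 ± 0.11 (adjusted p = 0.0760), so neither heavy chain passed in either fit.

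Among the other class I genes, 17 were tested and 1 rose and 6 fell in polyps. H2-Q1, a heavy chain gene of the Q region (chromosome 17, 35461859 to 35461918 on mm9), changed most. It had −3.41, −3.85, −3.72 and −3.34 in polyps, against 0.77, 0.08, 0.41 and 0.31 in Apc normal tissue and 0.94, −0.16, 0.63 and 0.32 in wild-type tissue. Every polyp was more than 3 log2 units under every normal array, and the normal groups overlapped. The difference between polyps and Apc normal tissue was −3.97 ± 0.18 (adjusted p = 1.44e-05), a 15.7-fold lower level, and it was −4.03 ± 0.20 (adjusted p = 9.84e-05) without the polyp of mouse 103.

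H2-Q5, another Q region gene (chromosome 17, 35532392 to 35532451 on mm9), went the other way in 3 mice. The array assigns its probe, like that of H2-K2, to a RefSeq transcript listed as non-coding, and both genes are part of the class I sum. It had −1.82, 1.45, 1.08 and 0.87 in polyps, against −1.52, −0.70, −1.70 and −0.69 in Apc normal tissue and −1.94, −1.70, −1.84 and −2.09 in wild-type tissue. The polyp of mouse 103 lay among the normal arrays and the other 3 polyps lay above all of them. The difference from Apc normal tissue was 1.55 ± 0.69 (adjusted p = 0.0993) with all arrays and 2.28 ± 0.30 (adjusted p = 0.00151) without that polyp.

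Cd1d1, which presents lipids to natural killer T cells, was the only member called higher with all arrays. It had 0.81, 0.75, 0.24 and 0.37 in polyps, against −0.17, −0.61, −0.19 and −0.73 in Apc normal tissue and −0.57, 0.14, −0.20 and −0.27 in wild-type tissue. The groups of polyps and normal arrays did not overlap, and the polyp of mouse 103 was the highest. The difference from Apc normal tissue was 0.97 ± 0.19 (adjusted p = 0.00409), and 0.88 ± 0.20 (adjusted p = 0.0126) without that polyp.

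H2-T23 encodes the Qa-1 molecule, which natural killer cells read through CD94/NKG2A. It had 4.01, 4.45, 4.46 and 4.43 in polyps, against 5.56, 4.51, 5.44 and 4.75 in Apc normal tissue and 5.74, 5.23, 5.27 and 5.34 in wild-type tissue. All polyps were below all normal arrays, by as little as 0.06 in mouse 106. The difference from Apc normal tissue was −0.72 ± 0.25 (adjusted p = 0.0462), and −0.61 ± 0.27 (adjusted p = 0.113) without the polyp of mouse 103.

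The class I genes H2-M2, H2-Q10, H2-Q2 and H2-Bl also fell, by 0.67 to 0.97 on the log2 scale. H2-Q2 had 4.37, 5.10, 5.09 and 5.07 in polyps, against 5.70, 5.44, 5.60 and 5.56 in Apc normal tissue and 5.90, 5.77, 5.78 and 5.94 in wild-type tissue. H2-M2 had 1.59, 2.43, 2.42 and 2.32 in polyps, against 3.41, 2.79, 3.15 and 2.89 in Apc normal tissue and 3.52, 3.11, 3.11 and 3.21 in wild-type tissue. On these probes the polyps lay under all normal arrays, whereas on the second probe of H2-M2 they overlapped both normal groups. H2-Q10, known in mice as a secreted class I molecule of the liver, fell by 0.76 ± 0.20 (adjusted p = 0.0152), and its probe matches a second H2-Q2 probe, not the one whose values are given above, at 90.0% of 50 bases. The heavy chain genes of the Q and T regions are close copies of each other, and cross-hybridisation was not tested.

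**Figure D2:**
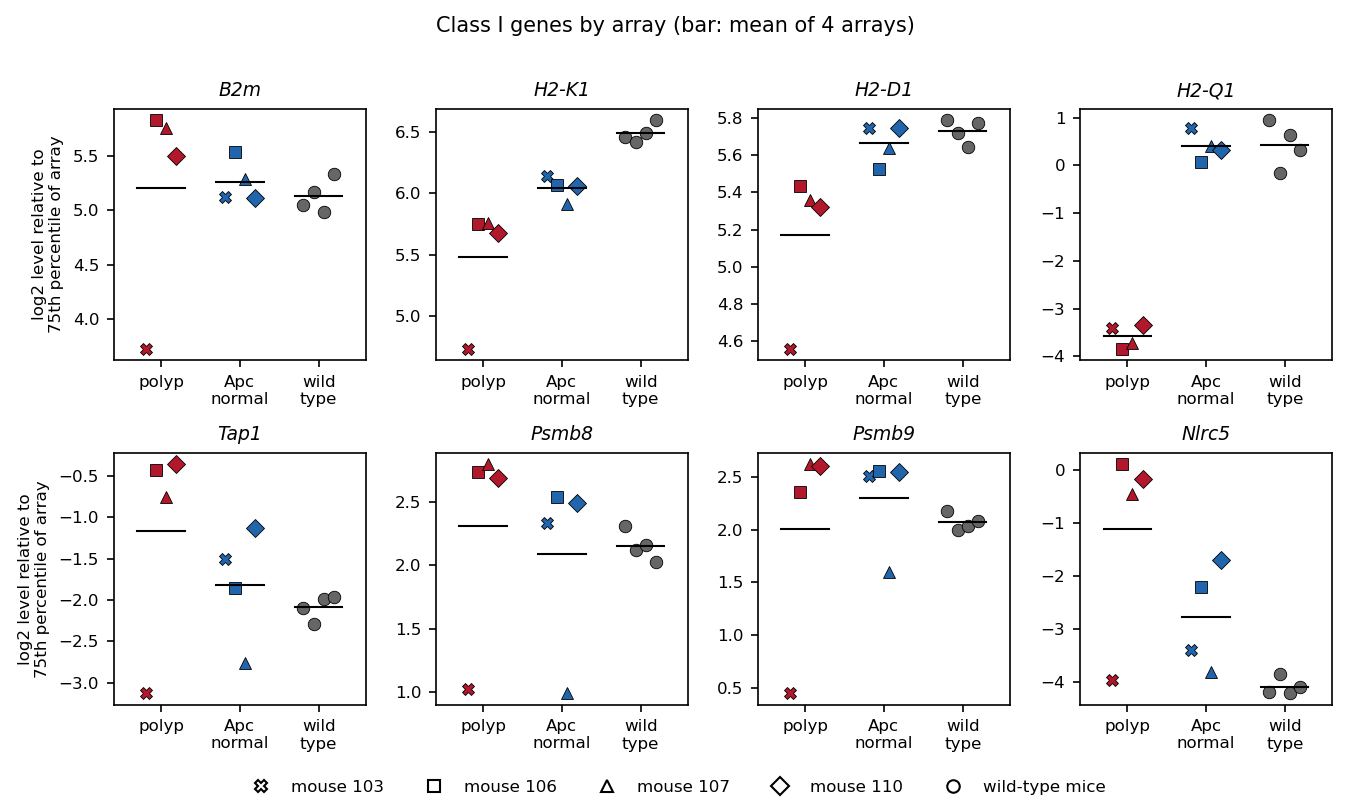
Log2 levels (vertical axis, relative to the array's 75th percentile) of B2m, H2-K1, H2-D1, H2-Q1, Tap1, Psmb8, Psmb9 and Nlrc5 on the 4 polyp, 4 Apc normal and 4 wild-type arrays, with bars at group means and a symbol for the mouse. H2-Q1 lies under −3 in all polyps and above −1 on all normal arrays, and the polyp of mouse 103 lies below the other 3 polyps in B2m, H2-K1, H2-D1, Tap1, Psmb8, Psmb9 and Nlrc5.

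In peptide processing and loading, 2 of 6 members fell and none rose with all arrays, whereas 1 rose and none fell without the polyp of mouse 103. Tap1, a subunit of the peptide transporter, had −3.12, −0.43, −0.75 and −0.36 in polyps, against −1.51, −1.85, −2.76 and −1.13 in Apc normal tissue and −2.09, −2.29, −1.98 and −1.97 in wild-type tissue. The polyp of mouse 103 was the lowest of the 12 arrays and the other 3 polyps were the highest. Its difference from Apc normal tissue was 0.65 ± 0.64 (adjusted p = 0.444), and 1.30 ± 0.37 (adjusted p = 0.0271) without that polyp. Tap2, the other subunit, had 0.47, 1.56, 1.61 and 1.81 in polyps, against 2.27, 1.84, 1.33 and 2.07 in Apc normal tissue and 2.27, 1.98, 2.15 and 2.01 in wild-type tissue. Its difference from Apc normal tissue did not pass in either fit and was −0.21 ± 0.23 (adjusted p = 0.495) without that polyp.

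Psmb8, a catalytic subunit of the immunoproteasome, had 1.03, 2.74, 2.80 and 2.69 in polyps, against 2.33, 2.54, 0.99 and 2.49 in Apc normal tissue and 2.31, 2.13, 2.16 and 2.03 in wild-type tissue. Psmb9, the subunit whose promoter Tap1 shares, had 0.45, 2.36, 2.62 and 2.60 in polyps, against 2.51, 2.56, 1.59 and 2.55 in Apc normal tissue and 2.18, 1.997, 2.04 and 2.09 in wild-type tissue. In both, 1 polyp (mouse 103) and 1 Apc normal array (mouse 107) were low and the other arrays lay close together. Psmb10, the third inducible subunit, had 3.79, 4.12, 4.58 and 4.54 in polyps, against 5.24, 4.95, 4.94 and 4.58 in Apc normal tissue and 4.88, 4.76, 4.50 and 4.89 in wild-type tissue. It fell by 0.67 ± 0.22 (adjusted p = 0.0334) with all arrays, and the difference was −0.52 ± 0.19 (adjusted p = 0.0722) without the polyp of mouse 103.

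Tapbp, the peptide editor tapasin, had 2.21, 2.59, 2.45 and 2.48 in polyps, against 3.27, 2.78, 2.70 and 2.76 in Apc normal tissue and 3.19, 2.97, 2.90 and 3.08 in wild-type tissue. The polyps lay under all normal arrays, and the Apc normal array of mouse 103 was the highest. Tapbp fell by 0.45 ± 0.16 (adjusted p = 0.0459), and its difference was −0.37 ± 0.16 (adjusted p = 0.114) without the polyp of mouse 103.

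Nlrc5, the class I co-activator, had −3.96, 0.10, −0.46 and −0.19 in polyps, against −3.40, −2.21, −3.81 and −1.70 in Apc normal tissue and −4.19, −3.86, −4.22 and −4.10 in wild-type tissue. The polyp of mouse 103 lay among the wild-type arrays and the other 3 polyps lay above all normal arrays. The difference between polyps and Apc normal tissue was 1.65 ± 0.92 (adjusted p = 0.180) with all arrays and 2.60 ± 0.51 (adjusted p = 0.00681) without that polyp, a 6.05-fold higher level. A second, dimmer probe of Nlrc5 differed by −0.03 with all arrays, and by 0.24 (adjusted p = 0.520) without that polyp, and it was called in neither fit.

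**Figure D3:**
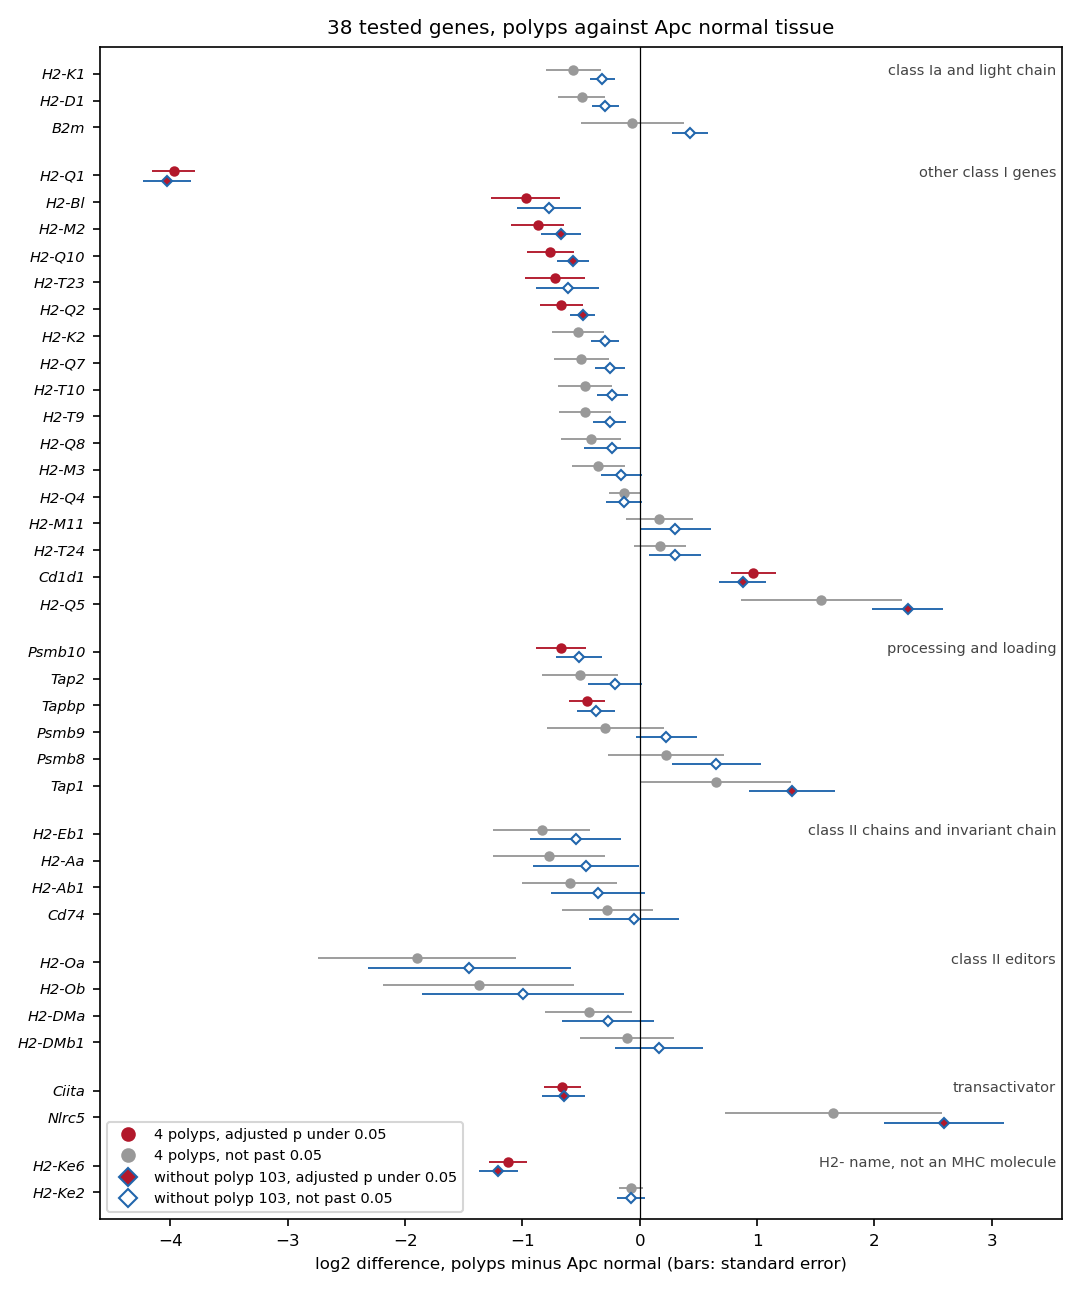
Log2 differences of polyps minus Apc normal tissue (horizontal axis) for the 38 members tested, with all arrays and without the polyp of mouse 103, and with bars of 1 standard error. H2-Q1 stands near −4 in both fits, and Nlrc5, H2-Q5 and Tap1 move furthest to the right when that polyp is left out.

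Of 9 class II genes tested against Apc normal tissue, Ciita alone was called. Ciita, the class II co-activator, had −5.31, −5.48, −5.00 and −5.32 in polyps, against −4.57, −4.35, −4.59 and −4.94 in Apc normal tissue and −4.22, −5.38, −5.71 and −4.99 in wild-type tissue. Its polyps lay under all Apc normal arrays but within the wild-type range. It fell by 0.66 ± 0.16 (adjusted p = 0.00976) against Apc normal tissue, and by 0.65 ± 0.18 (adjusted p = 0.0268) without the polyp of mouse 103. It was well above background on all but 1 wild-type array. The call was lost in 5 of 25 alternatives, over which the difference ran from −0.93 to −0.14.

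Cd74, the invariant chain, had 2.79, 3.81, 3.90 and 3.45 in polyps, against 3.30, 4.25, 3.01 and 4.51 in Apc normal tissue and 3.47, 3.24, 2.76 and 2.25 in wild-type tissue. H2-Aa, the α chain of the A molecule, had 0.82, 2.11, 2.42 and 1.72 in polyps, against 1.88, 3.32, 1.74 and 3.23 in Apc normal tissue and 1.95, 1.98, 1.57 and 1.45 in wild-type tissue. Both genes overlapped between all 3 groups, with the Apc normal arrays of mice 106 and 110 highest. The β chain genes had a like spread. H2-Ab1 had 3.17, 4.24, 4.29 and 3.90 in polyps, against 4.11, 5.17, 3.61 and 5.11 in Apc normal tissue and 4.20, 4.20, 3.83 and 3.49 in wild-type tissue. H2-Eb1 had 2.78, 3.94, 4.26 and 3.59 in polyps, against 3.94, 5.08, 3.80 and 5.09 in Apc normal tissue and 4.04, 4.02, 3.63 and 3.25 in wild-type tissue. In Cd74, H2-Aa, H2-Ab1 and H2-Eb1 the differences of polyps from Apc normal tissue ran between −0.83 and −0.28, with adjusted p from 0.136 to 0.590.

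The peptide editors overlapped between polyps and Apc normal tissue as well. H2-DMa had −1.69, −1.23, −0.56 and −1.31 in polyps, against −1.16, −0.40, −1.495 and 0.02 in Apc normal tissue and −0.92, −1.14, −1.42 and −2.07 in wild-type tissue. H2-DMb1 had 0.00, 0.80, 1.58 and 0.89 in polyps, against 0.56, 1.44, 0.20 and 1.51 in Apc normal tissue and 0.66, 0.42, 0.18 and −0.29 in wild-type tissue. The chains of DO are known mainly from B cells. H2-Oa had −4.40, −3.69, −1.91 and −2.26 in polyps, against −2.34, −0.16, −2.64 and 0.49 in Apc normal tissue and −1.43, −2.90, −2.62 and −2.53 in wild-type tissue. H2-Ob had −4.54, −3.82, −2.65 and −2.58 in polyps, against −3.12, −0.88, −3.70 and −0.39 in Apc normal tissue and −1.82, −3.35, −3.24 and −3.19 in wild-type tissue. In H2-Oa and H2-Ob the Apc normal arrays of mice 106 and 110 were the highest and the polyps of mice 103 and 106 the lowest. Against Apc normal tissue the difference was −1.90 ± 0.84 for H2-Oa (adjusted p = 0.0995) and −1.37 ± 0.82 for H2-Ob (adjusted p = 0.204).

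Within a mouse, 8 class II genes (all those tested except Ciita) were lower in the polyp than in the Apc normal tissue of mice 103, 106 and 110 and higher in the polyp of mouse 107. Mouse 107 is the one whose Apc normal array was low in class II. With the Apc normal arrays of mice 106 and 110 left out, an alternative added after the values were seen, the difference of Cd74 was 0.33 and that of H2-DMb1 0.44, so their direction turned.

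**Figure D4:**
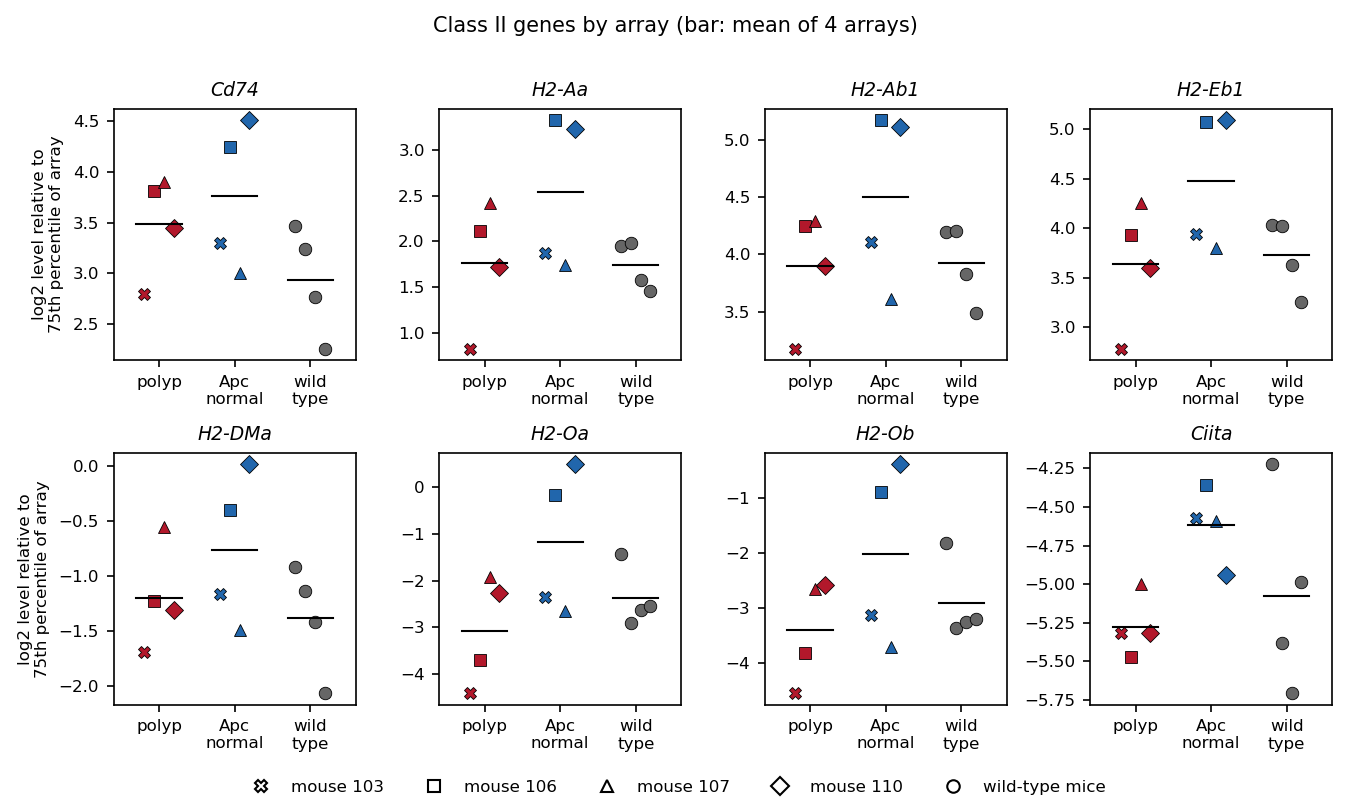
Log2 levels (vertical axis, relative to the array's 75th percentile) of Cd74, H2-Aa, H2-Ab1, H2-Eb1, H2-DMa, H2-Oa, H2-Ob and Ciita on the 4 polyp, 4 Apc normal and 4 wild-type arrays, with bars at group means and a symbol for the mouse. Apart from Ciita, the Apc normal arrays of mice 106 and 110 stand above the other Apc normal arrays, and polyps and wild-type arrays overlap.

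Of the H2-named genes outside the MHC families, H2-Ke6 (a hydroxysteroid dehydrogenase) had 1.70, 1.28, 1.54 and 1.30 in polyps, against 2.81, 2.45, 2.76 and 2.28 in Apc normal tissue and 3.11, 2.57, 2.60 and 2.39 in wild-type tissue. The polyps lay under all normal arrays. It fell by 1.12 ± 0.16 (adjusted p = 0.000888) against Apc normal tissue, and by 1.20 ± 0.17 (adjusted p = 0.00176) without the polyp of mouse 103. H2-Ke2, listed by RefSeq as the prefoldin subunit Pfdn6, differed by −0.07 and was not called.

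Other genes of the class I pathway were read from the same fit. For this and the following lists the background against Apc normal tissue is 45.8% of genes called (21.1% higher and 24.8% lower). Without the polyp of mouse 103 it is 40.3% (19.1% higher and 21.3% lower). Of 16 tested, 3 rose and 1 fell in polyps against Apc normal tissue, and 5 rose and 1 fell without the polyp of mouse 103. Those that rose were Psme3, a proteasome activator, by 0.79 ± 0.20, Psmb7, a constitutive proteasome subunit, by 0.54 ± 0.11, and Cd1d2, the close copy of Cd1d1, by 0.80 ± 0.14. Psme1 (0.33 ± 0.11) and Mr1 (0.64 ± 0.16), which presents vitamin metabolites, passed only in the fit without that polyp. Fcgrt, the neonatal Fc receptor that also pairs with B2m, fell by 1.55 ± 0.23.

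Of 12 tested partners of class II, 2 rose (Nfyb by 0.51 ± 0.11 and Creb1 by 0.51 ± 0.14, both DNA-binding proteins of the class II promoter complex) and 5 fell. Those that fell were Rfxank, a subunit of the RFX complex, by 1.28 ± 0.19, the lysosomal protease Ctss by 1.11 ± 0.24, the lysosomal thiol reductase Ifi30 by 1.25 ± 0.16, and the ubiquitin ligases March1 by 2.12 ± 0.19 and March8 by 0.66 ± 0.12. March1 is known to remove class II from the surface of B cells and dendritic cells. Without the polyp of mouse 103 the same 5 fell and 4 rose, with Ctsl and Lgmn added.

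The interferon gamma list moved with the polyp of mouse 103. Of 16 tested genes, 1 rose (Socs1, a feedback inhibitor, by 1.06 ± 0.29) and 3 fell: Ifngr1, a receptor chain, by 1.19 ± 0.14, Irf2 by 1.22 ± 0.24 and Irf8 by 1.16 ± 0.19. Without that polyp 7 rose and the same 3 fell, against a background of 40.3%. Those added were Gbp3, Igtp, Irgm1, Iigp1, Cxcl9 and Cxcl10, which are interferon-induced GTPases and chemokines that attract T cells. Cxcl9 had −5.21, 1.66, 2.04 and 1.79 in polyps, against −2.82, −2.07, −2.81 and −1.46 in Apc normal tissue. As with Nlrc5 and H2-Q5, the polyp of mouse 103 was below and the other 3 were above all Apc normal arrays. The summed level of the list was 40.0 in the polyp of mouse 103 and 68.8 to 82.0 in the other polyps. It was 57.8 to 81.2 in Apc normal tissue and 65.0 to 80.0 in wild-type tissue. On the normal arrays the bright Ifngr1, Irf1 and Ifngr2 weigh most in this sum, and Ifngr1 fell in polyps. The mean log2 level of the 18 genes, dim ones included, was −1.20 in the polyp of mouse 103 and 0.56 to 0.80 in the other polyps. That mean was −0.75 to −0.04 in Apc normal tissue and −0.71 to −0.58 in wild-type tissue.

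Ifng itself was well above background in 3 polyps (mice 106, 107 and 110), with log2 levels of −3.47, −3.43 and −4.00, and on no other array. Its probe read −7.34 in the polyp of mouse 103 and −7.76 to −6.11 in Apc normal tissue, where it was not well above background. Of 12 tested genes of the type I interferon response, 3 rose (Usp18, Ifit2 and Ddx58) and 2 fell (Oas1a and Irf7), and 7 rose and 1 fell without the polyp of mouse 103. The summed level of this list was 14.6 in that polyp and 35.8 to 48.1 in the others. It was 33.4 to 42.0 in Apc normal tissue and 28.1 to 39.1 in wild-type tissue. On the normal arrays most of this sum is the signal of Oas1a, which fell in polyps. The mean log2 level of the 12 genes was −1.11 in the polyp of mouse 103 and 0.45 to 0.87 in the other polyps. That mean was −0.48 to −0.13 in Apc normal tissue and −0.99 to −0.56 in wild-type tissue.

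Markers of the cells that carry these molecules were read in the same way. In the B and plasma cell, dendritic cell and macrophage lists the share called in either direction lay under the background of 45.8%. Their counts are therefore not a result about these lists. Of 9 tested B and plasma cell markers, 3 fell in polyps (Pax5 by 1.98 ± 0.32, Tnfrsf17 by 2.25 ± 0.61 and Cd22 by 1.04 ± 0.28), and their summed level was 12.7, 14.0, 46.3 and 37.4 in polyps, against 33.0, 111, 47.4 and 108 in Apc normal tissue and 32.0 to 40.7 in wild-type tissue. The Apc normal arrays of mice 106 and 110 were highest in the class II sum and in this sum, most of which is the signal of Jchain, a plasma cell gene. Not every B cell marker had that order. Pax5 had −2.86, −2.89, −2.15 and −3.63 and Cd22 had −1.73, −1.37, −0.39 and −1.54 in the Apc normal tissue of mice 103, 106, 107 and 110, so both were highest in mouse 107. Of 8 tested dendritic cell markers, Cd209a fell by 2.72 ± 0.54 and none rose, Xcr1 was not well above background on any array, and the sum was 17.0 to 20.4 in polyps, against 17.6 to 29.4 in Apc normal tissue and 18.4 to 32.1 in wild-type tissue. Most of that sum is the signal of Siglech, a marker of plasmacytoid dendritic cells, and the other markers weigh little in it. Against wild-type tissue, where the background is 60.7%, 4 of the 8 rose (Itgax by 1.28, Zbtb46 by 0.65, Batf3 by 0.76 and Ccr7 by 2.80) and Cd209a fell by 2.42. Of 9 tested macrophage markers, Cd68 rose by 1.01 ± 0.32 and Mertk fell by 2.17 ± 0.28, and the sum was 20.0 to 35.6 in polyps, against 16.8 to 37.3 in Apc normal tissue and 12.3 to 25.0 in wild-type tissue.

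Of 9 tested T and natural killer cell markers, Gzmb rose by 3.23 ± 0.68, Lck rose by 0.78 ± 0.26 and Nkg7 fell by 1.41 ± 0.19, and Cd8a and Ncr1 were not well above background on any array. Their sum was 6.91 to 9.43 in polyps, against 8.46 to 13.4 in Apc normal tissue and 7.82 to 12.8 in wild-type tissue, and Nkg7 and Cd4 weigh most in it. Against wild-type tissue, with the same background of 60.7%, Cd3d rose by 2.04, Cd3g by 1.81, Lck by 1.28 and Gzmb by 4.57, and Nkg7 fell by 1.31. Without the polyp of mouse 103, 5 of the 9 rose against wild-type tissue, Cd2 being added, and 1 fell. The background of that fit is 59.2% (27.5% higher and 31.7% lower). With 9 genes these counts are not read as a result about the list. Of 5 tested markers of group 3 innate lymphoid cells, Il1r1 rose by 0.68 ± 0.21, and Il23r was not well above background on any array. Their sum was 1.43 to 2.50 in polyps, against 2.67 to 3.45 in Apc normal tissue and 1.98 to 2.89 in wild-type tissue.

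Colonic epithelial markers fell in 9 of 12, among them Slc26a3 by 5.31 ± 0.41 and Cdx1 by 1.69 ± 0.17, with a sum of 336 to 444 in polyps, against 724 to 1095 in Apc normal tissue and 766 to 965 in wild-type tissue. All 7 smooth muscle markers fell, with a sum of 19.1 to 41.7 in polyps, against 246 to 328 in Apc normal tissue and 350 to 473 in wild-type tissue. Of 6 endothelial markers, Cdh5 rose by 1.08 ± 0.21 and Tek fell by 0.50 ± 0.16 (−0.38 ± 0.14 without the polyp of mouse 103, where it was not called, adjusted p = 0.0718), and the sum of all 6 was 15.4 to 18.8 in polyps, against 13.5 to 29.6 in Apc normal tissue and 13.9 to 25.2 in wild-type tissue. The epithelial and muscle sums separate polyps from normal tissue in the way H2-Q1, H2-D1 and the class I sum do. The part of these cell types in the differences of MHC genes was not tested.

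Apc normal tissue was next set against wild-type tissue, which asks whether the mutant allele alone goes with a difference. No member was called by limma, against a background of 0.14% (27 of 19308 genes, 0.124% higher and 0.0155% lower), so members and background were alike rare. At an unadjusted p under 0.05 there were 8 members, 3 higher and 5 lower, and 3376 genes of the array. Among the probes that stand for a gene, H2-K1 was closest to the threshold, with a difference of −0.44 ± 0.10 (adjusted p = 0.101), and Nlrc5 differed by 1.32 ± 0.44 (adjusted p = 0.196) and H2-Q5 by 0.74 ± 0.25 (adjusted p = 0.201). H2-Q1 differed by −0.04 ± 0.25 (adjusted p = 0.954). The probes of H2-Q10 disagreed, with −0.17 ± 0.12 (adjusted p = 0.514) for the one that stands for the gene and 1.64 ± 0.34 (adjusted p = 0.0961) for a second, dimmer one. All 9 tested class II genes had a higher mean in Apc normal tissue, with a median difference of 0.74, and none reached an unadjusted p under 0.05. No gene of the partner, interferon or cell marker lists was called. All wild-type arrays lay on 1 slide and no other array did, so slide and genotype cannot be told apart here or in the next comparison.

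Polyps were last set against wild-type tissue. Of 38 members, 22 changed, 4 higher and 18 lower, against a background of 60.7% (27.6% higher and 33.0% lower). The median difference of the members was −0.48, against −0.05 over all genes tested. Polyps are shared with the first comparison, so the values are given side by side with those above and not as a repeat. H2-Q1 fell by 4.01 ± 0.24 (adjusted p = 7.24e-06), a 16.1-fold lower level. H2-T23 fell by 1.06 ± 0.15 (adjusted p = 0.000475) and H2-Ke6 by 1.21 ± 0.17 (adjusted p = 0.000442). H2-Q10 is counted as lower by its brighter probe (−0.93 ± 0.19, adjusted p = 0.00290), whereas its second probe was higher (0.65 ± 0.25, adjusted p = 0.0487). The second probe of H2-M2 was not called (−0.45 ± 0.41, adjusted p = 0.360). Both classical heavy chains fell here, H2-K1 by 1.01 ± 0.23 (adjusted p = 0.00506) and H2-D1 by 0.56 ± 0.19 (adjusted p = 0.0312), whereas B2m differed by 0.07 ± 0.44 (adjusted p = 0.906).

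The 4 members that rose against wild-type tissue were Nlrc5, H2-Q5, Cd1d1 and H2-T24. Nlrc5 rose by 2.97 ± 0.82 (adjusted p = 0.0139), H2-Q5 by 2.29 ± 0.65 (adjusted p = 0.0152) and Cd1d1 by 0.77 ± 0.19 (adjusted p = 0.00747). H2-T24, a class I gene of the T region, rose by 0.66 ± 0.13 (adjusted p = 0.00250), with −4.92, −4.37, −4.40 and −4.48 in polyps, against −4.79, −4.48, −5.25 and −4.33 in Apc normal tissue and −5.22, −5.18, −5.19 and −5.21 in wild-type tissue. Its polyps lay above all wild-type arrays and overlapped the Apc normal ones.

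Without the polyp of mouse 103, 26 members changed against wild-type tissue, 9 higher and 17 lower, against a background of 59.2% (27.5% higher and 31.7% lower). The 21 called in both fits exclude H2-M11, and B2m, Tap1, Psmb8, Psmb9 and H2-DMb1 were added, all higher in polyps. In that fit Nlrc5 rose by 3.91 ± 0.16 (adjusted p = 7.67e-06), a 15.1-fold higher level on the probe that stands for the gene, H2-Q5 by 3.02 ± 0.16 (adjusted p = 1.84e-05) and Tap1 by 1.57 ± 0.13 (adjusted p = 8.88e-05). The second Nlrc5 probe differed by 1.09 ± 0.27 (adjusted p = 0.0116), a 2.13-fold higher level, in that fit and by 0.82 ± 0.33 (adjusted p = 0.0609) with all arrays, so the size rests on the choice of probe. B2m rose by 0.56 ± 0.13 (adjusted p = 0.00730) and H2-K1 fell by 0.76 ± 0.08 (adjusted p = 0.000272). In the polyps of mice 106, 107 and 110 the light chain, Tap1 and the co-activator were thus higher than in wild-type tissue while the classical heavy chains were lower.

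None of the 9 class II genes was called against wild-type tissue with all arrays, and the largest of their differences upward were H2-DMb1 at 0.57 ± 0.33 (adjusted p = 0.168) and Cd74 at 0.56 ± 0.32 (adjusted p = 0.167). At an unadjusted p under 0.05 there was 0 as well. Without the polyp of mouse 103, H2-DMb1 rose by 0.85 ± 0.27 (adjusted p = 0.0316). The difference of H2-Oa was −0.69 ± 0.58 (adjusted p = 0.329).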

How the data were processed

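RNA of 12 tissue samples was hybridised to Agilent 1-colour mouse arrays. Per the file headers, Feature Extraction 10.7.3.1 produced the deposited intensity values, subtracting background and detrending within each array, and probe coordinates are those of mm9. The deposited value table holds a ratio, the processed signal over 1 constant per array by comparison with the scanner values, and the sources used here do not say how it was made. It served as an alternative. Spots of the control type and 1403 with an outlier mark were dropped. Log2 processed signals, averaged per probe, were centred on each array's 75th percentile. Probes whose signal was well above background throughout 1 or both of the compared groups were tested with limma 3.58.1 (R 4.3.3), 2-sided, 1 fit per comparison, Benjamini-Hochberg over all probes, threshold 0.05, no fold minimum. A gene is counted by its probe of highest mean. The code was tested on simulated data. Tables and figures used Python 3.11.15, pandas 2.3.3, numpy 2.4.6 and matplotlib 3.10.9.

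Groups and mouse numbers come from the sample titles. Polyps and Apc normal tissue share mouse numbers, and deviations of same-numbered arrays correlated at 0.480, 0.187, 0.117 and 0.318 for mice 103, 106, 107 and 110 over 23021 probes, so the mouse was used as a block in an alternative. The titles say polyps in the plural and do not give how many polyps went into a sample. With 4 arrays per group precision is limited. Members and lists were chosen with earlier results of these data known. Every member could be named. Values per array were given for the chains, loading genes and co-activators, for the 3 highest and 3 lowest called differences, and, of each list, for genes of smallest p or, in the partner and interferon lists, genes that passed. Single values of some marker genes are not reported here, although the list sums and counts include them. H2-Q5 and Ifng values per array were chosen after they were seen. Alternatives were the scaling, background correction, dim-probe filter, probe choice, array weights, slide, mouse block and left-out arrays. Leaving out both arrays of mouse 103, or the Apc normal arrays of mice 106 and 110, was added after seeing the data.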

Additional observations from a re-analysis of the deposited data

Results flagged for a closer look

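Of 107 groups of 4 arrays examined gene by gene, 15 held 1 array whose gap to the nearest of the others exceeded Dixon's critical value, which chance alone exceeds in about 1 in 20 groups. The polyp of mouse 103 was the low array in 11 of these. It had a log2 level of 3.73 in B2m, 4.73 in H2-K1, 4.12 in H2-K2, 4.56 in H2-D1, 4.37 in H2-Q2, 1.59 in H2-M2 and 4.01 in H2-T23. It had −3.12 in Tap1, 1.03 in Psmb8, 0.45 in Psmb9 and −3.96 in Nlrc5. The other polyps lay between 5.49 and 5.83 in B2m and between −0.46 and 0.10 in Nlrc5. The Apc normal array of mouse 107 was low in Psmb8 (0.99) and Psmb9 (1.59), where the other Apc normal arrays lay between 2.33 and 2.56. The Apc normal array of mouse 103 was high in Tapbp (3.27), and the wild-type array of mouse 102 was high in H2-Ob (−1.82).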

How the results depend on the processing

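The count of 11 members called in polyps against Apc normal tissue fell to 6 under normexp with quantile normalization, 7 under quantile normalization, 7 with the mouse as a replicate block, 4 within slide 2 (mice 103 and 106) and 1 within slide 3 (mice 107 and 110). Over all genes the share called was 45.8% in the main fit. In these settings it was 45.2%, 45.3%, 46.9%, 17.9% and 10.4%, in the same order, so within a slide fewer genes passed on the whole array. The count of members ran from 7 to 10 when 1 array was left out. It was 7 without the Apc normal array of mouse 103, where 41.7% of all genes were called. Against wild-type tissue the count for polyps ran from 16 to 26 over its alternatives, and that for Apc normal tissue was 0 in all of them. Of the 11 calls, Tapbp was lost in 18 of 25 alternatives, H2-T23 in 17, Psmb10 in 12, H2-Bl in 8 and Ciita in 5, while H2-Q1 was lost in none. The replicate block lost H2-Bl, H2-T23, Psmb10 and Tapbp and changed no other call. Over 86 single-gene results, 1613 of 1822 alternative values kept direction and side of the threshold, 123 fell under it, 25 passed it and 61 turned direction.

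None of the results that turned was called with all arrays, and the cause was not tested. When 1 array was left out, polyps minus Apc normal tissue ran from −0.27 to 0.43 in B2m, −0.14 to 0.65 in Psmb8, −0.53 to 0.23 in Psmb9 and −0.36 to 0.16 in H2-DMb1. Apc normal minus wild-type tissue ran from −0.22 to 0.30 in Psmb8. Polyps minus wild-type tissue ran from −0.14 to 0.56 in B2m, −0.00315 to 0.59 in Psmb8, −0.27 to 0.45 in Psmb9, −0.41 to 0.0816 in Ciita, −0.19 to 0.34 in H2-Aa, −0.17 to 0.22 in H2-Ab1, −0.30 to 0.19 in H2-Eb1 and −0.0386 to 0.35 in H2-DMa.

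Without the Apc normal arrays of mice 106 and 110, polyps minus Apc normal tissue was 0.33 in Cd74, 0.041 in H2-Ab1, 0.13 in H2-DMa, 0.44 in H2-DMb1 and 0.017 in H2-Ob. Apc normal minus wild-type tissue was then 0.10 in H2-T23, −0.049 in Tap1, −0.025 in Psmb9, 0.042 in Cd1d1, −0.068 in H2-Ab1, −0.12 in H2-Oa and −0.51 in H2-Ob. Without both arrays of mouse 103, polyps minus Apc normal tissue was 0.38 in B2m, 0.30 in Psmb9 and 0.038 in H2-DMb1. Within slide 2 it was −0.095 in Tap1 and −0.55 in Psmb8, and within slide 3 it was 0.43 in B2m, 0.018 in Tap2, 0.54 in Psmb9 and 0.38 in H2-DMb1. In B2m it was 0.12 with array weights, 0.29 under normexp with quantile and 0.28 under quantile normalization.

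With array weights, Apc normal minus wild-type tissue was 0.079 in Psmb8, and polyps minus wild-type tissue was 0.22 in Psmb9 and 0.028 in H2-Ab1. Polyps minus wild-type tissue was 0.047 in Psmb9, 0.18 in H2-Ab1 and 0.11 in H2-Eb1 under normexp with quantile, and 0.055, 0.23 and 0.14 in the same genes under quantile normalization. In H2-Aa it was −0.00725 under median scaling and −0.00577 from the value table. For dim members, signal near background limits what can be seen.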

Other observations

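Some members that could not be tested were well above background on only some of the arrays. H2-T3, which encodes the thymus leukaemia antigen of intestinal epithelium, was well above background on 2 Apc normal arrays, at −1.99 in mouse 107 and −5.61 in mouse 103, and on no polyp or wild-type array. H2-T18 (−3.23) and H2-M10.4 (−2.91) were above background only in the Apc normal tissue of mouse 107. H2-DMb2 and H2-Eb2, further class II β chain genes, were highest in the Apc normal tissue of mouse 110 (−2.08 and −1.87) and of mouse 106 (−2.94 and −2.83).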
